A study of Mus musculus with 24 samples.

Results

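Quaking (Qk) and 9 further regulators of splicing that are typical of the nervous system were followed through the 4 genotype and diet groups of a mouse study. The 10 genes were Qk, Rbfox1, Rbfox2, Rbfox3, Nova1, Nova2, Celf2, Celf4, Ptbp2 and Elavl2, out of 55414 gene identifiers in the count table, and each symbol was matched to its Ensembl identifier through GENCODE M21. All 10 passed the filter on low counts, which kept 19967 genes. The set was put together with results of these libraries known. Qk was chosen by its lower count in Ts65Dn than in 2N neurons on the control diet, so the values of that comparison are given as a description, with no test.

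Each library held RNA of about 500 neurons from the medial septum and the vertical limb of the diagonal band, cut out by laser after staining for choline acetyltransferase, from 1 male mouse aged about 6 months. Ts65Dn mice, a Down syndrome model, carry an additional copy of a part of chromosome 16 and of a part of chromosome 17, and 2N mice are disomic. All mice came from Ts65Dn dams on a mixed background. The groups, per the labels, were Ts65Dn with maternal choline supplementation (5.0 g/kg choline chloride in chow of the dam until weaning, n = 8), Ts65Dn on the control diet (1.1 g/kg, n = 6), 2N with supplementation (n = 4) and 2N on the control diet (n = 6), whereas the design text states 6 per group. From weaning on, every mouse was fed the control chow. None of the 10 genes lies in a triplicated segment: Qk lies on chromosome 17 and Rbfox1 on chromosome 16, both outside it.

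The libraries held 4688258 to 13443438 counts (median 10010353), and 13125 to 22694 genes had a count. Control-diet Ts65Dn replicate 3 and supplemented Ts65Dn replicate 7 had the fewest genes, 13125 and 13164. Supplemented Ts65Dn replicates 2 and 5 stand among the supplemented 2N columns of the series table, although their labels read Ts65Dn. The labels were followed, and the fits that use these libraries were also made without both. The staining target itself, Chat, was under 1 CPM (counts scaled to library size) in 6 of 24 libraries and at 0 in 1. Slc18a3, the vesicular acetylcholine transporter, was at 0 in 4 libraries, all of them control-diet Ts65Dn. The 10 cholinergic markers summed to 8.68 to 226 CPM in control-diet Ts65Dn libraries and to 188 to 279 CPM in control-diet 2N libraries. Oligodendrocyte markers were detected in every library, at a sum of 790.0 to 4209 CPM.

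Splicing regulators of this kind bind short words in a precursor RNA and thereby favour or block the use of nearby exons. Many form families whose members share a binding word but differ in the cells that express them. Quaking binds the word ACUAAC or ACUAAU and a nearby UAAC or UAAU; it is abundant in oligodendrocytes and astrocytes, where it is known for its role in myelination, and is lower in most mature neurons. The other 9 genes are best known from neurons.

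Quaking is made in forms that share most of their coding sequence and end in different tails, and the tail governs whether the protein stays in the nucleus. The coding ends of 3 Qk transcripts of GENCODE M21 are shown because the deposited gene counts sum over them. All 3 share their first 934 coding bases, of which the last 15 are in lower case. Capitals mark the bases from where the 3 cease to agree up to the stop codon. Qk-204 and Qk-206 both begin this part with GT.
Qk-201: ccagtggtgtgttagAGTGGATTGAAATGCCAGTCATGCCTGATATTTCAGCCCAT
Qk-204: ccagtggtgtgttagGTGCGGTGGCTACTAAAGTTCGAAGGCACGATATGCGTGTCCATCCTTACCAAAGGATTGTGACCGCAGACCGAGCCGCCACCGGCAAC
Qk-206: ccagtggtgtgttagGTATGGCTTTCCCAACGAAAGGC
Their coding lengths were 975, 1023 and 957 bases, and the whole transcripts were 6737, 8547 and 5428 bases long. Most of each transcript is therefore untranslated.

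The Quaking word was also searched in the longest coding transcript of each gene, on the sense strand, as ACTAAC or ACTAAT. Qk-204 held 7, or 0.819 per kb, and the longest coding Celf2 transcript held 3. Rbfox3, Nova2, Celf4, Ptbp2 and Elavl2 held 1 each, and Rbfox1, Rbfox2 and Nova1 held 0. Of 8568 genes whose longest transcript fell in the same range of lengths, 61.6% held the word, at 0.247 per kb over all of them. The word stood within 20 bases of a second TAAC or TAAT in 1 place each in Qk and Celf2, both in the untranslated end. These places are shown with both words in capitals.
Qk-204: TAATaccaacctACTAAC
Celf2-214: ACTAATgtgcagttcTAAC
A match of letters is not a bound site, and 26.1% of the same 8568 genes held such a pair.

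Per length, the members spanned a wide range of levels, with small steps from each to the next. In TPM, the authors' unit that scales transcripts by length and library, the medians over all 24 libraries were 96.8 for Rbfox2, 96.3 for Celf4, 73.2 for Qk, 62.7 for Celf2, 62.2 for Rbfox1, 47.9 for Rbfox3, 36.4 for Elavl2, 28.2 for Ptbp2, 14.3 for Nova1 and 13.3 for Nova2. Neighbours in that order did not differ beyond their spread, whereas the ends, Rbfox2 and Nova2, did: the mean log2 TPM of neighbours lay 0.11 to 0.60 apart, the mean of Rbfox2 was 6.51 and that of Nova2 3.65, and the SD over libraries was 0.47 (Nova2) to 1.69 (Ptbp2). Qk ranged over 14.6 to 197 TPM and Ptbp2 over 0.55 to 138 TPM.

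Qk was lower in control-diet Ts65Dn neurons than in control-diet 2N neurons, and this is the pattern it was selected on. It had 111 to 176 CPM (median 161) in the 6 control-diet Ts65Dn libraries, against 255 to 519.6 CPM (median 326) in the 6 control-diet 2N libraries. The highest Ts65Dn library lay below the lowest 2N library, so the groups did not overlap. The mean was 154 ± 26.2 CPM in Ts65Dn and 340.4 ± 93.7 CPM in 2N (SD, n = 6 each), a log2 fold change of -1.14 (SE 0.23). In this comparison 0.336% of 19967 genes were called, that is, passed an adjusted p of 0.05, and 0.366% lay lower in Ts65Dn without overlap; nothing is read from Qk being among them. Without control-diet Ts65Dn replicate 3 the log2 fold change was -1.08 and Qk was no longer called.

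**Figure D1:**
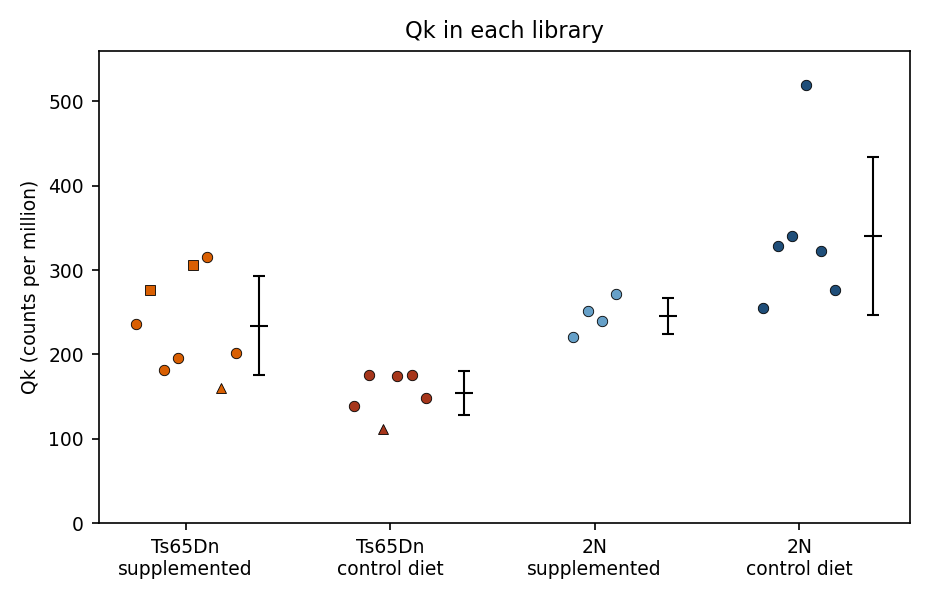
Qk in CPM (vertical axis) in each library, by group (horizontal axis). Points are libraries, bars are mean ± SD, triangles mark the libraries with the fewest genes and squares mark supplemented Ts65Dn replicates 2 and 5; all 6 control-diet Ts65Dn libraries sit at 111 to 176, below all 6 control-diet 2N libraries at 255 to 519.6.

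In control-diet Ts65Dn, the oligodendrocyte and astrocyte marker sums had lower medians than in control-diet 2N. They were 2928 against 3766 CPM and 2152 against 2488 CPM. The oligodendrocyte precursor and microglia sums had higher medians, 247 against 197 CPM and 112 against 86.9 CPM. The 14 oligodendrocyte markers summed to 790.0, 1698, 2342, 3513, 3834 and 4209 CPM in the control-diet Ts65Dn libraries, lowest to highest, against 3218 to 4184 CPM in control-diet 2N libraries. The Ts65Dn library with the smallest sum, replicate 3, also had the lowest Qk, 111 CPM. Among the 3 Ts65Dn libraries whose sums lay above 3218 CPM, Qk was 174.6 to 176 CPM. Qk was chosen for being low in the control-diet Ts65Dn libraries, so nothing is read from these values about the oligodendrocyte sums. The 15 astrocyte markers summed to 1849 to 2450 CPM in control-diet Ts65Dn and to 2084 to 2763 CPM in control-diet 2N. Gfap, Aqp4, Slc1a2 and Mbp were above 0 in every library, and Mog was at 0 in 2 control-diet Ts65Dn libraries. With a glial score (mean centred log2 CPM of the oligodendrocyte and astrocyte lists) in the fit, the Qk log2 fold change was -0.60. The median over all genes was 0.21. That fit called 0 of 19967 genes, so the loss of the call is not particular to Qk. On the TPM scale the log2 difference was -0.98, beside a median of -0.36 over all genes. The 10 general neuronal markers summed to 3462 to 5601 CPM in control-diet Ts65Dn and to 4923 to 6103 CPM in control-diet 2N, and the 7 glutamatergic markers to 28.0 to 1017 CPM in control-diet Ts65Dn and to 17.3 to 171 CPM in control-diet 2N; the part of glial and neuronal makeup in the members' values was not tested beyond the fit with the score. In captured material, fewer cells of a type and less RNA per cell cannot be told apart.

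**Figure D2:**
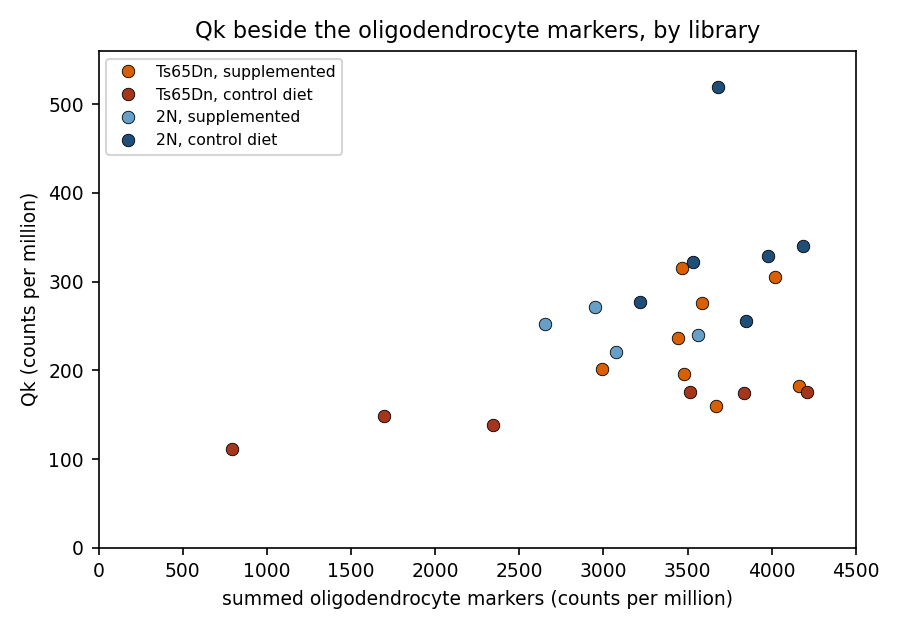
Qk in CPM (vertical axis) against the summed oligodendrocyte markers in CPM (horizontal axis), 1 point per library, coloured by group. 3 control-diet Ts65Dn libraries lie at sums of 790.0 to 2342 and 3 at 3513 to 4209, and all 6 lie at or below 176 CPM of Qk. Qk was chosen on the control-diet libraries, so nothing is read from their positions.

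With supplementation, the genotypes overlapped in the CPM of Qk, while its TPM was lower in most Ts65Dn libraries. It had 160.3 to 316 CPM (median 219) in the 8 supplemented Ts65Dn libraries, against 220.5, 252, 239.6 and 271 CPM in the 4 supplemented 2N libraries. Of the 8 Ts65Dn libraries, 4 lay below every 2N library and 3 above every one, so the wider group enclosed the narrower. The means were 234 ± 58.8 CPM in Ts65Dn (n = 8) and 246 ± 21.3 CPM in 2N (SD, n = 4). These libraries took no part in choosing Qk, so a test could be made. The log2 fold change was -0.07 (SE 0.24), with a 95% interval of -0.54 to 0.40 and an adjusted p of 0.996 in edgeR's quasi-likelihood test. A two-sided exact permutation test of log2 CPM over 495 splits gave p = 0.596 for a difference of -0.11, and p = 0.252 for -0.22 without supplemented Ts65Dn replicates 2 and 5. In TPM, Qk had 14.6 to 170 (median 45.3) in supplemented Ts65Dn, against 95.9, 63.6, 115 and 197 in supplemented 2N. Of the 8 Ts65Dn libraries 6, at 14.6 to 54.3 TPM, lay below every 2N library, and the other 2 were replicates 2 and 5. How many of all genes lay so in TPM was not counted, so nothing is read from these positions. Mitochondrial ribosomal RNA made up 29.03 to 43.26% of counts in those 6 Ts65Dn libraries. It made up 17.81% in replicate 2, 21.15% in replicate 5 and 18.12 to 22.59% in supplemented 2N. Its part in the TPM values was not tested. The log2 TPM difference was -1.10, beside a median of -0.47 over all genes, and was not called by limma; relative to that median it was -0.63, beside -0.62 on the control diet.

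In CPM, Qk was higher in supplemented than in control-diet Ts65Dn neurons and lower in supplemented than in control-diet 2N neurons, but the Ts65Dn difference turned to -0.14 on the log2 TPM scale. All 8 supplemented Ts65Dn libraries lay above the control-diet Ts65Dn mean, and 7 lay above every control-diet Ts65Dn library, with a log2 fold change of 0.60 (SE 0.21). All 4 supplemented 2N libraries lay below the control-diet 2N mean and 3 lay below every control-diet 2N library, with a log2 fold change of -0.47 (SE 0.25). The difference between the diet effects was 1.07 (SE 0.33), and 0.95 without supplemented Ts65Dn replicates 2 and 5. With the glial score in the fit the values were 0.25 in Ts65Dn, -0.24 in 2N and 0.49 for their difference. These values share control-diet libraries with the comparison that chose Qk and are given as a description, with no test. In TPM, relative to the median of all genes, the values were 0.03 in Ts65Dn, 0.04 in 2N and 0.00 for the difference, so the counts and the length-scaled unit did not show the same pattern. Without supplemented Ts65Dn replicates 2 and 5 the log2 fold change in Ts65Dn was 0.48. The first part of the animal identifier, the ID prefix, has no stated meaning; within prefix 16 the diet difference in Ts65Dn was 0.63 and the genotype difference on the supplemented diet -0.06, and within prefix 17 the genotype difference on the control diet was -1.24.

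The 3 RBFOX proteins share the word UGCAUG. Rbfox1 and Rbfox3 (the antigen NeuN) are mainly neuronal, and Rbfox2 is also made in other tissues. The comparison of genotypes on the supplemented diet left Rbfox3 with the highest log2 fold change of the 10 genes. It had 49.7 to 141 CPM (median 69.2) in supplemented Ts65Dn libraries, against 22.2, 56.1, 57.6 and 46.8 CPM in supplemented 2N libraries. 7 of 8 Ts65Dn libraries lay above every 2N library. The log2 fold change was 0.88 (SE 0.38, adjusted p = 0.435 in edgeR), so it did not pass, and on the TPM scale the difference was 0.04 where the median of all genes was -0.47. It was 0.93 without supplemented Ts65Dn replicates 2 and 5, and 0.37 within prefix 16. On the control diet Rbfox3 had 42.2 to 170 CPM (median 102) in Ts65Dn and 37.7 to 95.3 CPM (median 80.7) in 2N, with 4 of 6 Ts65Dn libraries above every 2N library. Supplementation gave Rbfox3 a log2 fold change of -0.68 in 2N (SE 0.39, adjusted p = 0.912 in edgeR) and -0.26 in Ts65Dn (SE 0.32). All 4 supplemented 2N libraries lay below the control-diet 2N mean, and the 2N value was -0.19 on the TPM scale.

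Rbfox1 had 28.8 to 124 CPM (median 62.2) in supplemented Ts65Dn, 49.1 to 216 CPM (median 100.2) in control-diet Ts65Dn, 48.8, 68.3, 82.6 and 30.7 CPM in supplemented 2N and 29.2 to 119 CPM (median 75.6) in control-diet 2N. Every pair of groups overlapped. The log2 fold change with supplementation was -0.69 (SE 0.36, adjusted p = 0.575) in Ts65Dn and -0.42 (SE 0.44, adjusted p = 1) in 2N, by edgeR. The value in Ts65Dn was -0.40 without control-diet Ts65Dn replicate 3, -0.30 with the glial score, -0.43 with the ID prefix in the fit and -0.13 within prefix 16. In 2N it was -0.21 without supplemented 2N replicate 4, -0.64 without supplemented 2N replicate 3 and -0.15 with the ID prefix. In the CPM fit, Rbfox2 differed least between groups within the family. Its group medians were 131 CPM in supplemented Ts65Dn, 181 CPM in control-diet Ts65Dn, 167 CPM in supplemented 2N and 192 CPM in control-diet 2N, and its log2 fold changes ran from -0.25 to 0.10 over the 4 comparisons.

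The NOVA proteins bind clusters of YCAY words and are known for exons of synaptic genes. Nova1 had 12.8 to 56.5 CPM (median 37.2) in supplemented Ts65Dn, against 111, 37.8, 47.4 and 76.4 CPM in supplemented 2N. All 8 Ts65Dn libraries lay below the 2N mean and 4 lay below every 2N library. This was a log2 fold change of -0.91 (SE 0.43, adjusted p = 0.487 in edgeR); it was -0.76 without supplemented Ts65Dn replicates 2 and 5, -0.57 without supplemented 2N replicate 1 and -1.79 on the TPM scale. Control-diet Ts65Dn was the group with the widest spread, at 27.5 to 131 CPM (median 48.0), and control-diet 2N the narrowest, at 41.5 to 64.3 CPM (median 51.4). With supplementation in Ts65Dn the log2 fold change of Nova1 was -0.79 (SE 0.39, adjusted p = 0.505 in edgeR), and all 8 supplemented libraries lay below the control-diet mean. It was -0.43 without control-diet Ts65Dn replicate 5, -0.48 within prefix 16, -0.64 without supplemented Ts65Dn replicates 2 and 5 and -1.32 on the TPM scale.

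Nova2, the paralogue that predominates in cortex, had 76.2 to 122 CPM (median 108) in supplemented Ts65Dn, against 93.2, 101, 51.4 and 67.5 CPM in supplemented 2N. On the control diet it had 100.3 to 222 CPM (median 113) in Ts65Dn and 61.9 to 119 CPM (median 93.4) in 2N. All 6 control-diet Ts65Dn libraries lay above the control-diet 2N mean, with a log2 fold change of 0.53 (SE 0.27); it was 0.32 without control-diet Ts65Dn replicate 3, 0.13 on the TPM scale, 0.82 within prefix 17 and -0.12 with the glial score in the fit. The log2 fold change on the supplemented diet was 0.42 (SE 0.29, adjusted p = 0.831 in edgeR), 0.27 without supplemented 2N replicate 3, 0.97 within prefix 16, and -0.22 on the TPM scale, where the median of all genes was -0.47.

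CELF proteins bind GU-rich words and act on splicing and on the stability of RNA in the cytoplasm. Celf4 had 119 to 325 CPM (median 171) in supplemented Ts65Dn, against 189.5 to 374 CPM (median 315) in control-diet Ts65Dn. Of the 8 supplemented libraries 7 lay below the control-diet mean and 4 below every control-diet library. This gave a log2 fold change of -0.66 (SE 0.23, adjusted p = 0.248 in edgeR), -0.60 without supplemented Ts65Dn replicates 2 and 5, and -0.41 with the ID prefix in the fit. In 2N, Celf4 had 169.9, 225, 250.4 and 229.6 CPM with supplementation and 189 to 283 CPM (median 232) on the control diet, a log2 fold change of -0.10 (SE 0.28). On the control diet 5 of 6 Ts65Dn libraries lay above every 2N library.

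Celf2 varied over a wider range within each group. It had 62.9 to 292 CPM (median 88.3) in supplemented Ts65Dn, 58.7 to 309.7 CPM (median 153) in control-diet Ts65Dn, 59.4, 88.9, 189 and 94.1 CPM in supplemented 2N and 50.7 to 275 CPM (median 75.0) in control-diet 2N. All pairs of groups overlapped. The log2 fold change with supplementation was -0.56 (SE 0.37, adjusted p = 0.736) in Ts65Dn and -0.13 (SE 0.45, adjusted p = 1) in 2N, by edgeR. The sign in Ts65Dn turned to 0.20 with the ID prefix in the fit and to 0.65 within prefix 16. It was -1.77 on the TPM scale, where the median of all genes was -0.17, -0.31 without control-diet Ts65Dn replicate 3 and -0.88 without supplemented Ts65Dn replicate 7.

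Ptbp2 is the neuronal relative of the polypyrimidine tract binding protein and represses exons of mature neurons. Elavl2 binds U-rich and AU-rich words and marks neurons from early stages on. Ptbp2 had 2.89 to 48.6 CPM (median 15.8) in control-diet Ts65Dn, against 19.4 to 63.1 CPM (median 37.0) in control-diet 2N. 5 of 6 Ts65Dn libraries lay below every 2N library, and the log2 fold change was -1.09 (SE 0.55), with -1.69 without control-diet Ts65Dn replicate 1 and -1.74 within prefix 17. In supplemented groups it had 2.84 to 58.8 CPM (median 38.4) in Ts65Dn, against 34.3, 23.2, 61.6 and 33.5 CPM in 2N, a log2 fold change of -0.12 (SE 0.57, adjusted p = 0.998 in edgeR). Without the lowest library, 2.84 CPM in supplemented Ts65Dn replicate 1, this log2 fold change was 0.058. Over the 12 libraries left out in turn it ranged from -0.30 to 0.20. Supplementation in Ts65Dn gave a log2 fold change of 0.96 (SE 0.52, adjusted p = 0.594 in edgeR), with 7 of 8 libraries above the control-diet mean. It was 1.57 without control-diet Ts65Dn replicate 1, 0.62 within prefix 16 and 0.61 without the libraries with the fewest genes.

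Elavl2 had 9.95 to 67.8 CPM (median 42.1) in control-diet Ts65Dn, against 34.1 to 153 CPM (median 74.3) in control-diet 2N, a log2 fold change of -1.14 (SE 0.43), with -0.65 under the glial score and -0.67 on the TPM scale. All 6 Ts65Dn libraries lay below the 2N mean, but only 2 below every 2N library. In supplemented groups it had 21.5 to 91.6 CPM (median 63.2) in Ts65Dn, against 97.9, 125, 118 and 52.8 CPM in 2N. All 8 Ts65Dn libraries lay below the 2N mean, with a log2 fold change of -0.74 (SE 0.44, adjusted p = 0.703 in edgeR); it was -0.90 without supplemented Ts65Dn replicates 2 and 5, -1.34 within prefix 16 and -1.48 on the TPM scale. Supplementation gave 0.67 (SE 0.40, adjusted p = 0.657 in edgeR) in Ts65Dn and 0.28 (SE 0.47, adjusted p = 1 in edgeR) in 2N; the value in Ts65Dn was 0.39 with the glial score, 0.37 on the TPM scale and 0.31 within prefix 16.

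**Figure D3:**
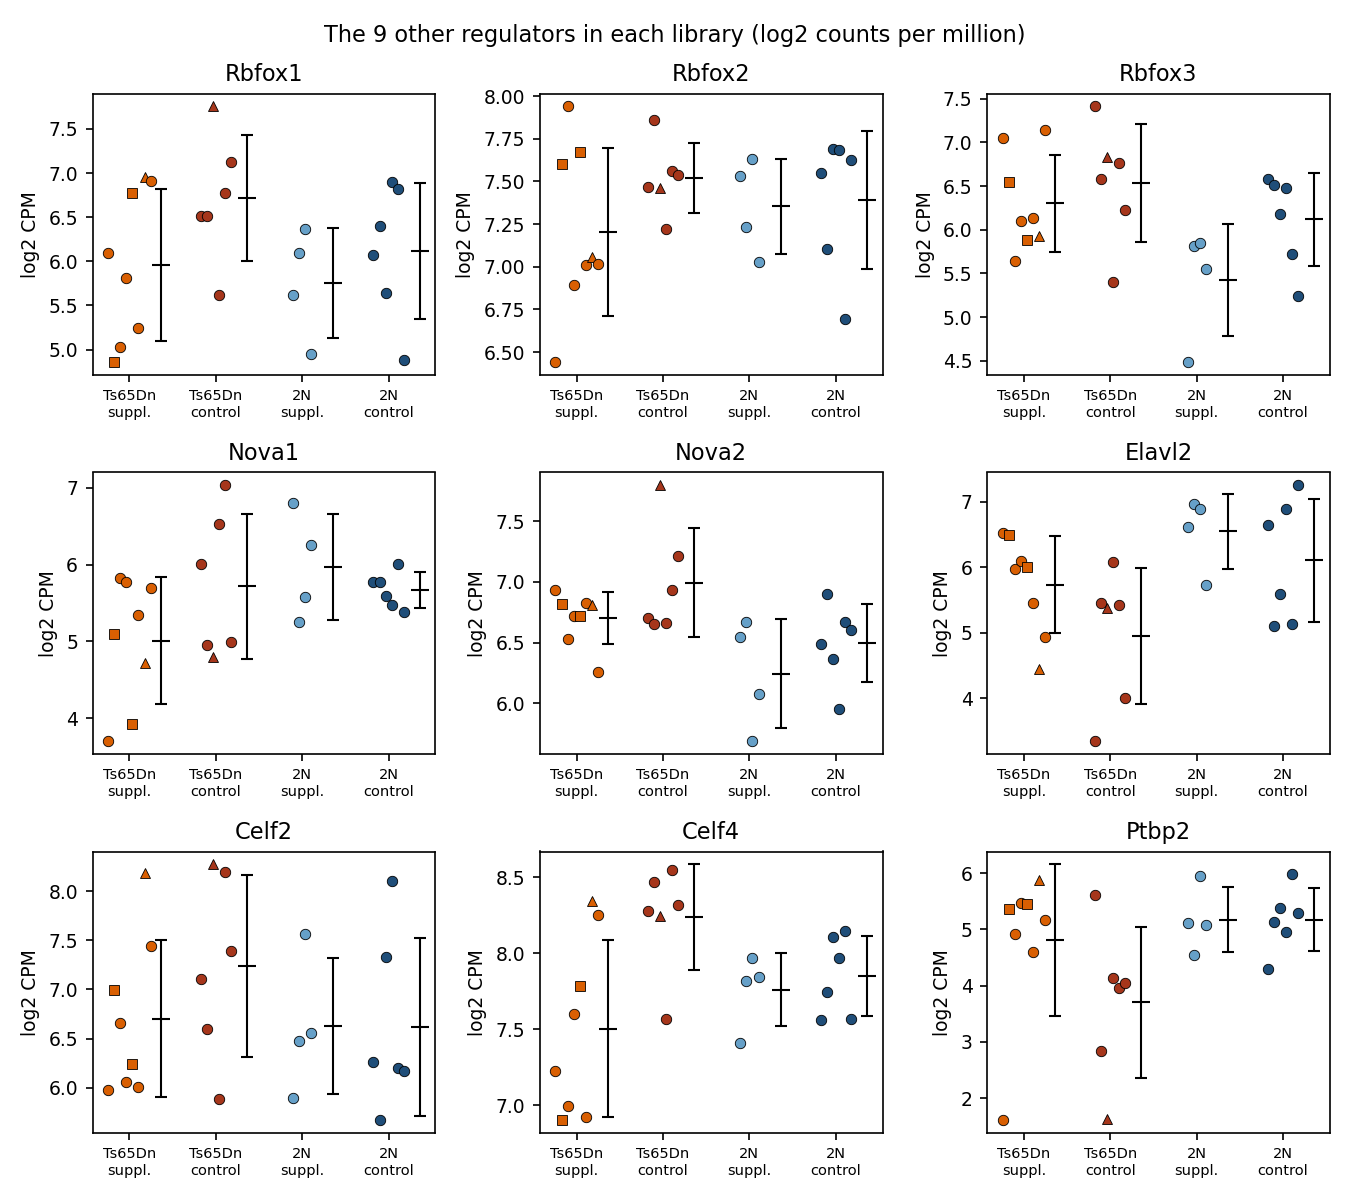
Log2 CPM (vertical axes, each with its own range) of the 9 other regulators in each library, by group, where suppl. stands for supplemented and control for the control diet. Points are libraries, bars are mean ± SD, triangles mark the libraries with the fewest genes and squares mark supplemented Ts65Dn replicates 2 and 5; the groups overlap for all 9 genes in each of the 4 comparisons.

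Counted over the set, edgeR called 1 of 10 members between genotypes on the control diet, Qk, which was chosen there. Of all tested genes edgeR called 0.336% and DESeq2 1.63% in that comparison, and nothing is read from the count. In the comparison of diets in Ts65Dn 0 of 10 were called, where 0.13% of all tested genes were; 2 members besides Qk (Celf4 and Nova1) had an unadjusted p under 0.05, as did 9.62% of genes, and DESeq2 called 0 members and 1.18% of genes. Qk is left out of that count, since the comparison shares libraries with the one that chose it. In the comparison of diets in 2N 0 of 10 were called, where 0.00501% of genes were. There 0 members, Qk included, had an unadjusted p under 0.05, beside 6.92% of genes. DESeq2 called 0 members and 1.06% of genes. Between genotypes on the supplemented diet 0 of 10 were called, where 0.18% of genes were; 2 members (Rbfox3 and Nova1) had an unadjusted p under 0.05, as did 9.49% of genes, and DESeq2 called 0 members and 2.05% of genes. In the interaction of genotype and diet edgeR called 0 of 10, where 0.00501% of genes were called; 0 members besides Qk had an unadjusted p under 0.05, as did 8.43% of genes. DESeq2 called 1.34% of genes and, of the members, Qk alone, in a contrast that shares libraries with the one that chose it. At these shares of all genes a count of 0 among 10 is no result about the members.

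The median log2 fold change of the 10 members was 0.35 between genotypes on the control diet, -0.08 between genotypes on the supplemented diet, -0.30 with supplementation in Ts65Dn and -0.11 with supplementation in 2N. Over all tested genes the medians were -0.02, 0.09, 0.04 and -0.06 in the same comparisons. On the control diet 7 members lay above 0, beside 49.0% of all tested genes. Qk, Ptbp2 and Elavl2 lay below it, and Qk was chosen for that. Among those 7, Nova1 and Rbfox2 lay below 0 on the TPM scale, and Nova2 with the glial score in the fit. In the Ts65Dn diet comparison Qk, Ptbp2 and Elavl2 lay above 0 and the other 7 below it, where 51.9% of all genes lay above 0. Both comparisons use the control-diet Ts65Dn libraries, which by itself ties their signs together.

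**Figure D4:**
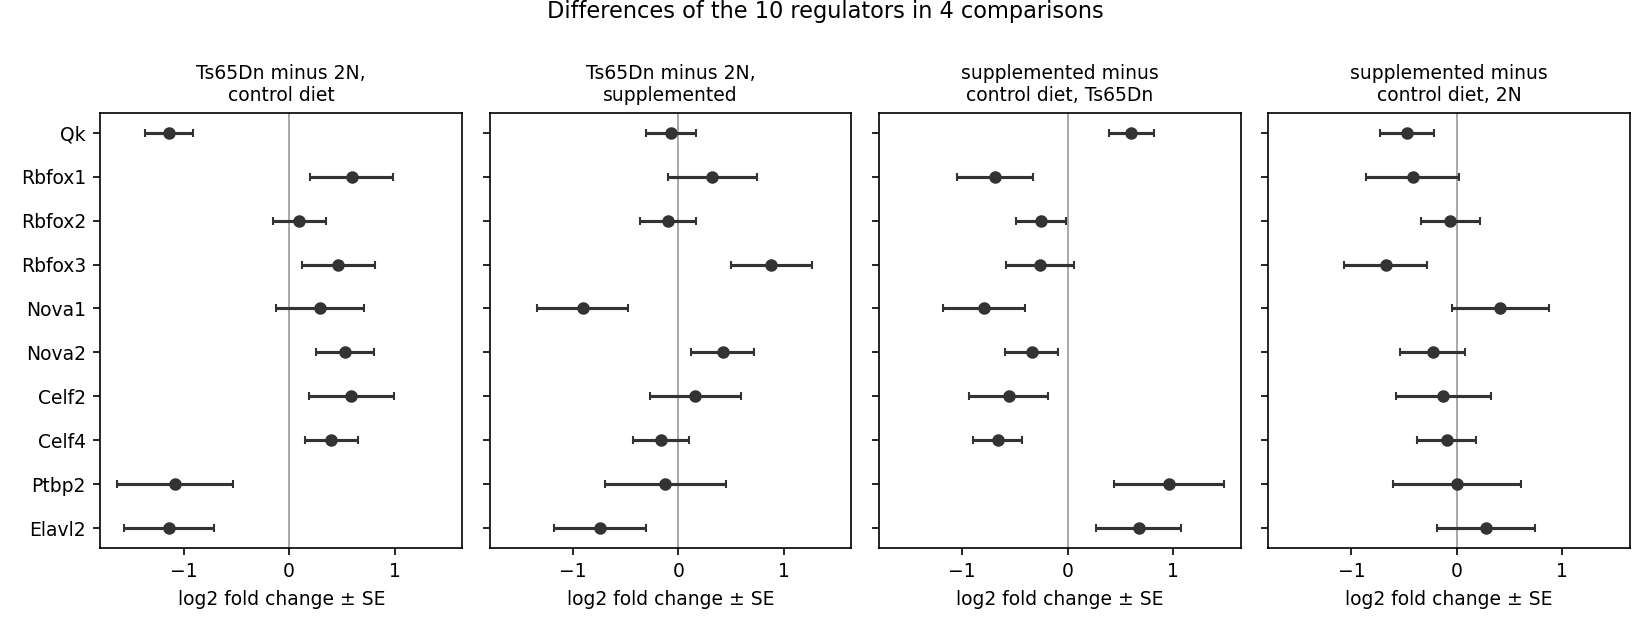
Log2 fold changes (horizontal axes) of the 10 regulators (rows) in 4 comparisons, each point with its SE from edgeR; Ts65Dn minus 2N stands in the left pair of panels and supplemented minus control diet in the right pair. Qk, Ptbp2 and Elavl2 lie at -1.14, -1.09 and -1.14 on the control diet, and Qk lies at -0.07 on the supplemented diet.

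Read counts of a gene say nothing of which of its transcripts carry them. The deposited per-sample files also give each gene's mean transcript length, weighted by the abundance RSEM assigned to its transcripts. The estimated mean length of Celf2 was 645 to 1524 bases (median 1404) in control-diet Ts65Dn libraries. It was 1657 to 5666 bases (median 2314) in control-diet 2N. The groups did not overlap, as held for 0.437% of 10754 genes in that direction. Of all genes 0% were called (711 had an unadjusted p under 0.05). Since the libraries are those that chose Qk, no test of a member is given. Of the 9 members whose length varied, Celf2 had the lowest log2 ratio there, -1.01 (SE 0.28). Elavl2 had the next lowest, -0.80 (SE 0.34). In supplemented Ts65Dn the length of Celf2 was 1441 to 3994 bases (median 2182), and in supplemented 2N it was 3121, 2281, 1677 and 1943 bases. 7 of 8 supplemented Ts65Dn libraries lay above the longest control-diet Ts65Dn value of 1524 bases. The log2 ratio of supplemented to control-diet Ts65Dn was 0.89 (SE 0.26, adjusted p = 0.361 in limma), which did not pass; 0.0186% of genes did.

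Qk lengths overlapped between all groups. They were 2309 to 6034 bases (median 3527) in supplemented Ts65Dn, 1940.5 to 4574 bases (median 2644) in control-diet Ts65Dn, 2617, 5758, 2315 and 1928 bases in supplemented 2N and 2186 to 6048 bases (median 4340) in control-diet 2N. The log2 ratio of Ts65Dn to 2N on the supplemented diet was 0.31 (SE 0.34, adjusted p = 0.896 in limma). Of the 9 members whose length varied, limma called 0 in this comparison, where 0.0093% of 10754 genes were called. It called 0 members with diet in Ts65Dn, with diet in 2N and in the interaction, beside 0.0186%, 0% and 0.0093% of genes. In this comparison 0 members had an unadjusted p under 0.05, as did 797 of 10754 genes. With diet in Ts65Dn, with diet in 2N and in the interaction 1 member each had one, as did 833, 588 and 682 genes. Nothing is read from these counts. Nova2 had the same length, 8372 bases, in every library. With single reads of 50 cycles, the assignment of reads among transcripts of a gene is an estimate.

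**Figure D5:**
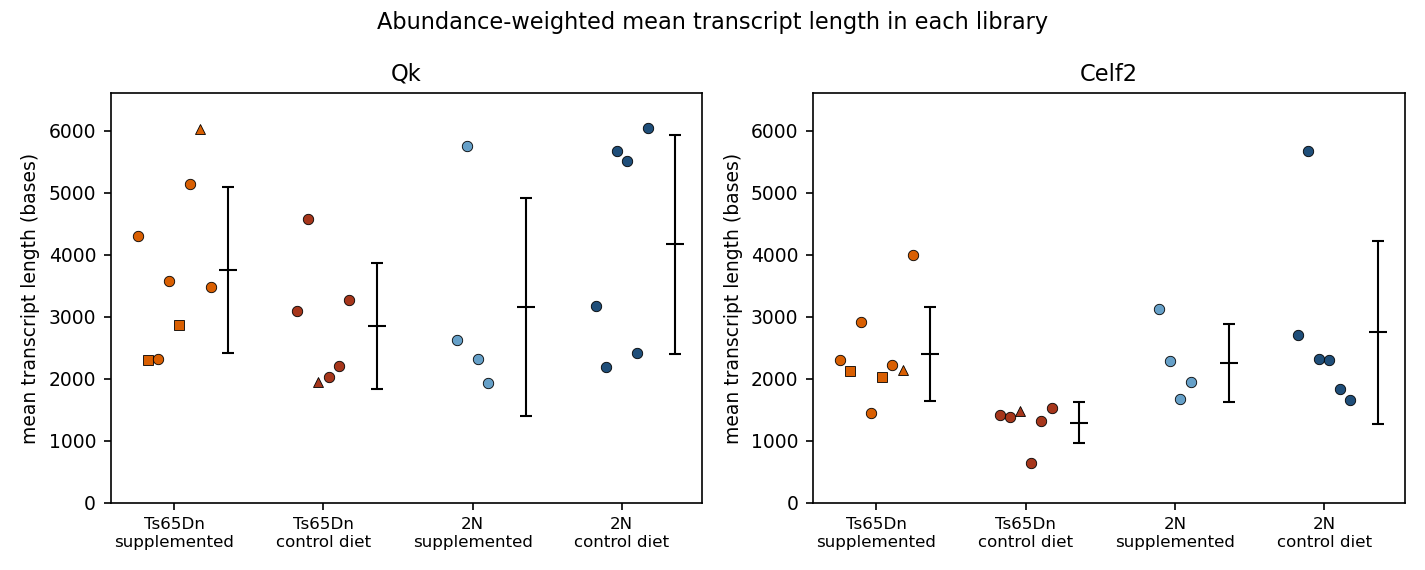
Abundance-weighted mean transcript length in bases (vertical axes) of Qk and Celf2 in each library, by group. Points are libraries, bars are mean ± SD, and triangles and squares mark the libraries named in the plot of Qk; Celf2 lies at 645 to 1524 in control-diet Ts65Dn and at 1657 to 5666 in control-diet 2N, and Qk overlaps between all groups.

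The other splicing regulators formed 3 lists. Of 37 further tissue-restricted or paralogous regulators 35 were tested, and 1 was called on the control diet, where 0.336% of all genes were: Celf5, a brain-enriched CELF protein, with 63.9 to 319.9 CPM in Ts65Dn and 10.7 to 91.9 CPM in 2N (log2 fold change 1.81, SE 0.43). It was not called with the glial score, within prefix 17 or on the TPM scale, where 0 genes were called. Its interaction value was -1.24 (SE 0.61, adjusted p = 0.588 in edgeR). The 14 SR proteins, which mostly favour exon inclusion, and the 32 hnRNP and related proteins, which often oppose it, were all tested, and edgeR called 0 of either list in each of the 5 comparisons. Son, a nuclear speckle protein whose gene lies in the triplicated part of chromosome 16, had 629.9 to 1020.3 CPM in supplemented Ts65Dn, against 358 to 647 CPM in supplemented 2N, a log2 fold change of 0.75 (SE 0.20, adjusted p = 0.114 in edgeR). On that diet Zfp638, an RNA-binding zinc finger protein, had a log2 fold change of -0.82 (SE 0.29, adjusted p = 0.367 in edgeR).

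With supplementation in Ts65Dn the smallest p-values of these lists belonged to Sfpq, a paraspeckle protein, with a log2 fold change of -0.49 (SE 0.20, adjusted p = 0.337 in edgeR), and to Srrm4, the neuronal activator of microexons, with 0.70 (SE 0.34, adjusted p = 0.489 in edgeR). In 2N they belonged to Rbm25, a spliceosome-associated protein, with -0.63 (SE 0.29, adjusted p = 0.646 in edgeR), and to Hnrnpa2b1, with -0.62 (SE 0.30, adjusted p = 0.711 in edgeR). None of these passed. The list medians on the control diet were -0.01, -0.13 and -0.06 for tissue-restricted regulators, SR proteins and hnRNPs, beside -0.02 for all genes. With supplementation in Ts65Dn they were -0.18, -0.17 and 0.06, beside 0.04 for all genes, and 13 of 35, 3 of 14 and 18 of 32 genes lay above 0, beside 51.9% of all genes.

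Over the 24 libraries, the 5 genes whose log2 CPM followed Qk most closely among 3732 well-measured genes included Tmem184c (Pearson r 0.82), Med13 (0.82), Zfp91 (0.76) and Eps15 (0.75). The 5 that followed Rbfox3 most closely included Pak6 (0.72), Sema4d (0.68), Cacna2d3 (0.67) and Ngef (0.66). These correlations include the differences between groups and are given as a description. Among the members, with group means removed, Celf4 was most like Rbfox1 (r 0.72) and then Celf2 (r 0.58), and Elavl2 and Celf4 were most opposed (r -0.49). Qk had r between -0.33 (Nova2) and 0.24 (Elavl2) with the other 9 genes; all of these points share libraries and their depth.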

How the data were processed

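Per the submitters' processing notes, the authors used Trimmomatic 0.39, STAR and RSEM; for the other tools no version is given in these sources. The builds GRCm39 and mm10 are named there without their roles, so no genome coordinates are given. Libraries were stranded total RNA made with a low-input kit and read once for 50 cycles, per the labels' protocols. Unnormalized RSEM expected counts of each gene make up the table the authors deposited for the series, and all 24 columns equalled the per-sample files. Those deposited files also hold the authors' TPM, FPKM (not used here) and mean transcript lengths. Reads carry no molecular identifiers.

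Expected counts were rounded. Genes were kept with filterByExpr (minimum count 10) and tested with edgeR 4.0.16 (R 4.3.3): TMM factors, quasi-likelihood F test, all 24 libraries in 1 fit, no covariate. Adjusted p-values are two-sided Benjamini-Hochberg values over all 19967 genes, and genes under 0.05 were called. The biological coefficient of variation was 1.4. CPM uses TMM library sizes, and log2 CPM a prior count of 2. Log2 mean transcript lengths were tested with limma 3.58.1 over 10754 genes that passed the count filter, varied in length and had a TPM above 0 in 3 or more libraries of each group; libraries at 0 were missing values. The fits were tested on simulated data. Alternatives included DESeq2 1.42.0, limma on log2(TPM + 0.5), the first part of the animal identifier (the ID prefix, of unstated meaning), a glial score and leaving out libraries.

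The members, lists and alternatives were chosen with earlier results of these data known. All 10 members are named in every comparison. Of the other lists, called genes, or otherwise up to 2 with the smallest p per comparison, are named. For Qk and Rbfox3 the 5 most similar genes were to be named, of which 1 each is not reported here. Animals were treated as independent; diets were given to dams, and litters, which are not given, could not be modelled.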

Additional observations from a re-analysis of the deposited data

Results flagged for a closer look

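Celf4 in control-diet Ts65Dn replicate 4 stood apart from its group, at a log2 CPM of 7.57 (189.5 CPM), where the other 5 libraries lay at 8.25 to 8.55. Ptbp2 in supplemented Ts65Dn replicate 1 stood apart at a log2 CPM of 1.61 (2.84 CPM), where the other 7 libraries lay at 4.60 to 5.88. Both came from 40 groups of libraries examined, and chance marks about 1 in 20 such groups.

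In CPM, the diet difference of Qk went opposite ways in the genotypes. All 8 supplemented Ts65Dn libraries lay above the control-diet Ts65Dn mean, by 0.58 on average in log2 CPM, and all 4 supplemented 2N libraries lay below the control-diet 2N mean, by -0.43 on average. The difference between the 2 was 1.02. It is given as a description, since Qk was chosen on the control-diet libraries that it uses. On the log2 TPM scale both diet differences were below 0, at -0.14 in Ts65Dn and -0.02 in 2N. The medians over all genes there were -0.17 and -0.06. With the glial score in the edgeR fit the difference between the diet effects was 0.49 (SE 0.43).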

How the results depend on the processing

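The number of members called on the control diet between genotypes (1, Qk) was 0 with the compared groups alone, within ID prefix 17, with the glial score, without the low-complexity libraries (control-diet Ts65Dn 3 and supplemented Ts65Dn 7) and with limma on log2 TPM, and 0 to 1 when leaving out single libraries, where only the fit without control-diet Ts65Dn replicate 3 lost it. The log2 fold change of Qk was -1.14, -1.24, -0.60, -1.08 and -0.98 in the first 5 of these, in that order. Those 5 fits called few genes or 0. In the same order they called 3 of 13605, 0 of 13991, 0 of 19967, 4 of 19802 and 0 of 19967. The number of members called in the interaction (0) was 1 with DESeq2. The remaining counts of called members, for expression and for transcript length, were as reported under each alternative run. Over all genes, the number called ranged over the alternatives from 0 to 326 between genotypes on the control diet (67 as reported), 6 to 236 with diet in Ts65Dn (26), 0 to 212 with diet in 2N (1), 32 to 410 between genotypes on the supplemented diet (36) and 0 to 268 in the interaction (1), with DESeq2 highest in each. Leaving out single libraries gave 4 to 127, 12 to 80, 0 to 2, 0 to 72 and 1 to 12 in the same order. The cause was not tested.

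Of 450 member values under alternatives other than leaving out 1 library, 31 changed sign. With limma on log2 TPM, whose all-gene medians were -0.36, -0.17, -0.06, -0.47 and -0.12 (genotypes on the control diet, diet in Ts65Dn, diet in 2N, genotypes on the supplemented diet, interaction), the changed values were Nova1 -0.19 and Rbfox2 -0.45 (control diet), Qk -0.14 (diet in Ts65Dn), Celf2 0.18 (diet in 2N), Celf2 -0.67, Nova2 -0.22 and Rbfox1 -0.64 (supplemented diet), and Elavl2 -0.82, Qk -0.12 and Rbfox3 -0.28 (interaction). With the glial score they were Nova2 -0.12 (control diet), Nova2 0.11 and Rbfox3 0.055 (diet in Ts65Dn), Ptbp2 -0.11 and Rbfox2 0.000293 (diet in 2N), and Elavl2 -0.12, Nova2 0.59 and Rbfox1 0.28 (interaction). With the ID prefix as a factor they were Celf2 0.20 (diet in Ts65Dn), Celf2 0.49, Celf4 0.047 and Rbfox2 0.032 (diet in 2N) and Elavl2 -0.046 (interaction). Within ID prefix 16 they were Celf2 0.65 and Nova2 0.18 (diet in Ts65Dn), and within prefix 17 Rbfox2 -0.0031 (control diet). Ptbp2 (diet in 2N) was -0.0030 with the groups alone and -0.010 without the filter. Without the low-complexity libraries they were Celf2 -0.16 and Qk 0.000674 (supplemented diet) and Nova2 0.092 (interaction). The cause was not tested.

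Leaving out 1 library changed the sign of 18 of 720 values. The ranges were -0.015 to 0.15 for Rbfox2 and -0.059 to 0.44 for Nova1 (control diet), -0.17 to 0.041 for Rbfox2, -0.55 to 0.32 for Celf2, -0.16 to 0.0097 for Celf4 and -0.33 to 0.21 for Ptbp2 (diet in 2N), -0.14 to 0.000476 for Qk, -0.16 to 0.57 for Celf2 and -0.30 to 0.20 for Ptbp2 (supplemented diet), and -0.48 to 0.015 for Rbfox1 and -0.26 to 0.10 for Nova2 (interaction). The log2 ratio of Celf2 transcript length ranged from -0.36 to 0.041 (diet in 2N) and from -0.059 to 0.24 (supplemented diet). Without supplemented Ts65Dn replicates 2 and 5, a choice made after seeing the data, no member value changed sign. No paired analysis was possible because replicate numbers were given in accession order and pair no mice. Within a prefix, the diet comparison in 2N and the interaction lacked 2 libraries of each group. With 4 libraries in supplemented 2N, differences of the size of the SE could not be seen.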
